A study of Rattus norvegicus with 9 samples.

Results

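The immediate early transcription factors described here are 10 genes, taken by name from a gene count table of 17337 rat genes: Fos, Fosb, Fosl1, Fosl2, Jun, Junb, Jund, Egr1, Atf3 and Myc. They were followed across 9 RNA-seq libraries of cardiac fibroblasts, which make and remodel the matrix of the heart, from Sprague Dawley rats of 3 ages with 3 libraries each. The fetal cells came from embryonic day 18, the neonatal cells from postnatal day 1 and the adult cells from animals of 7 weeks. All were P0 cells grown to confluency in flasks in DMEM with fetal bovine serum, penicillin, streptomycin and ascorbic acid, so every age was measured in serum-fed culture and no library came directly from heart tissue. No genotype or drug treatment is named, and the labels do not say whether the libraries of an age came from separate animals or cultures. The p-values below therefore measure the spread between these libraries, which may be partly technical.

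Immediate early genes are switched on within minutes of a stimulus such as serum, growth factors, stretch or cell dissociation, without a need for new protein synthesis, and most of their messages are short-lived. FOS proteins pair with JUN proteins through a leucine zipper to form the AP-1 factor, JUN proteins also pair with each other, and ATF3 is a stress-induced relative that joins the same dimer network. EGR1 is a zinc finger factor that binds GC-rich sites, and MYC pairs with MAX to drive growth and ribosome genes. In cardiac fibroblasts AP-1 and EGR1 are known as early responders to mechanical and growth factor signals that act on matrix and protease genes.

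In the gene models of the rn6 build, Fos lies on chromosome 6 from 109300433 to 109303299 on the plus strand, Fosb on chromosome 1 from 80214691 to 80221417 on the minus strand, Fosl1 on chromosome 1 from 220826560 to 220835066 on the plus strand and Fosl2 on chromosome 6 from 25598936 to 25616995 on the minus strand. Jun lies on chromosome 5 from 114011186 to 114014277, Junb on chromosome 19 from 26092972 to 26094756 and Jund on chromosome 16 from 20485028 to 20486707, all 3 on the minus strand and each as 1 exon block without an intron. Egr1 spans 27657903 to 27660101 of chromosome 18 on the plus strand, Atf3 spans 109817893 to 109849632 of chromosome 13 on the minus strand, and Myc spans 102586313 to 102591239 of chromosome 7 on the plus strand. Counts were taken over exons, and no member's exons overlapped those of another gene in the table. Fosl2 was modelled as 24 exon blocks of only 915 bases in all, so its level per length is uncertain.

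Promoter sequence was at hand for 6 of the 10 members (Fosb, Fosl1, Fosl2, Junb, Jund and Egr1), in RefSeq's GRCr8 assembly, whose coordinates are not those of the rn6 count table. Fos, Jun, Atf3 and Myc have no entry in that table. The 250 bases before the annotated start were searched for the CArG box (the site of serum response factor), TGACGTCA and its core TGACG (sites of the CREB and ATF factors), TGANTCA (the AP-1 site), GCGNGGGCG (the EGR site) and TATAAA, on both strands except TATAAA, which was read on the gene's strand. Every TGACGTCA also holds TGACG on each strand. Junb and Jund are printed as the JUN genes with an entry, both higher in adult cells below, and Fosl1 as the member that was lower there. Each runs 5′ to 3′ up to the base before the start, and capitals mark TGACG, TGACGTCA or TATAAA, on either strand for the first 2.

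Junb, chr19:40080876-40081125, plus strand: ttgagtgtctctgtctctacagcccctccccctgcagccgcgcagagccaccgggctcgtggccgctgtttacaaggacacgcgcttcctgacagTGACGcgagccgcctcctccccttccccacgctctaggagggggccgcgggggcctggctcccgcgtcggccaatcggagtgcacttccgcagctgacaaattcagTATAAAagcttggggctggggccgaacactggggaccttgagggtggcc

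Jund, chr16:18769772-18770021, minus strand: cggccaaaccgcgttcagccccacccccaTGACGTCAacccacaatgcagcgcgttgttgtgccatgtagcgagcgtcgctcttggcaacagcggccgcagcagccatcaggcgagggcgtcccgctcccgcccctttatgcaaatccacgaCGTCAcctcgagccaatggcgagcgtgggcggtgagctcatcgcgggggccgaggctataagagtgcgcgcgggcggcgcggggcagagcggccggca

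Fosl1, chr1:212183635-212183884, plus strand: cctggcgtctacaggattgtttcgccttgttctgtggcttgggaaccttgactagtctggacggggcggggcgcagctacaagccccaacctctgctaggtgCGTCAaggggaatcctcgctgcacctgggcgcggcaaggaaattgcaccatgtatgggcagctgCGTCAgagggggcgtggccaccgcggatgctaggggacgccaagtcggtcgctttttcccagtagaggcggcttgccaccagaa

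Junb had 1 TGACG, starting 155 bases before the start, and a TATAAA 49 bases before it. Jund had 1 full TGACGTCA, 221 bases before the start, a separate TGACG 98 bases before it, and 3 matches to the EGR site. Fosl1 had 2 copies of TGACG, 148 and 84 bases before the start. Egr1 had 2 CArG boxes, 105 and 83 bases before the start, and 2 copies of TGACG. Fosl2 had 1 match to the EGR site and Fosb had none of the motifs. TGANTCA was found in none of the 6. Of 33469 rat promoters of the same length, 1.5% held a CArG box, 1.59% held TGACGTCA, 18.2% held TGACG, 6.34% held TGANTCA, 4.29% held the EGR site and 8.06% held TATAAA. These matches describe the letters of the windows and were not tested against the expression values.

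Library totals ran from 13392825 to 22850491 counts, with all 3 adult libraries between 13392825 and 13810825. Levels are given as CPM, counts per 1000000 after TMM scaling (a factor per library that sets the bulk of genes equal). The fibroblast label was checked against 12 marker genes. Their summed level was between 77789 and 103326 CPM in the neonatal libraries and in fetal libraries 1 and 2. It was between 37308 and 52204 CPM in fetal library 3 and the adult libraries. Most of each sum came from Col1a1, Col3a1 and Fn1, and Col1a2 had only 1 to 21 counts per library. Single markers went both ways: 5 were called higher and 3 lower in adult than in fetal cells. Against neonatal cells 3 were called higher and 5 lower in the adult. Other cell types were also present in part. Of 12 macrophage markers, fetal libraries held a summed 14.7 to 72.7 CPM, neonatal libraries 158 to 175 CPM and adult libraries 4385 to 6033 CPM, and all 12 were higher in the adult than in either younger age. Of 13 cardiomyocyte markers the summed level was 9844 to 13661 CPM in the fetal and 6216 to 6867 CPM in the neonatal libraries. In the adult libraries it was 311 to 323 CPM, nearly all of it from Tnnt2 (303, 310 and 316 CPM). There 6 to 9 of the 13 were at or below 3 counts, and Csrp3 was at 0 in all 3. Fetal library 3 had 275 CPM of 8 epithelial markers against 13.9 and 15.7 in the other fetal libraries. The part of these other cells in the results was not tested, and in bulk RNA fewer cells of a type and less RNA per cell cannot be told apart.

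Members were compared between ages within a fit over the 11337 genes that passed a filter on low counts. All 10 members passed it. A gene is called below where its adjusted p was under 0.05 (edgeR's quasi-likelihood test with Benjamini-Hochberg adjustment over all genes tested). Log2 fold changes are given with a standard error (SE), the absolute log2 fold change divided by the square root of the test's F value. The SE is thus derived from the test and is not a separate measure of precision.

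Libraries within an age were not alike for these genes. Adult library 1 had the highest adult level of 10 of 10 members, against 39.8% of all genes tested for which that library was highest. It was at least 2-fold above each of the other adult libraries for 2 members, Fos and Fosb, against 2.92% of all genes. Fetal library 3 had the lowest fetal level of 6 of 10 members (44.6% of all genes), 3 of them at least 2-fold below each of the others (5.57% of all genes): Fos, Fosb and Egr1. The within-age spread on the log2 scale was an SD of 2.14 for Fosb and 1.11 for Fos, at the 99.98 and 99.2 percentiles of all genes, and 0.138 for Jun and 0.144 for Myc, below the median of 0.165 over all genes. Adult library 1 had the lowest summed macrophage (4385 CPM), fibroblast (40567 CPM) and cardiomyocyte marker levels (311 CPM) of the adult libraries. Its sums of mural (1470 CPM) and epithelial markers (1.38 CPM) were also the lowest. Its sums of endothelial (187 CPM) and epicardial or mesothelial markers (59.1 CPM) were the highest of the adult libraries. Whether any of these cells bear on the members' levels in adult library 1 was not tested. Values without fetal library 3, without adult library 1 or without both are given beside the results they touch. These libraries were chosen for the members' own values, and leaving them out narrows the spread that the test uses.

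**Figure D1:**
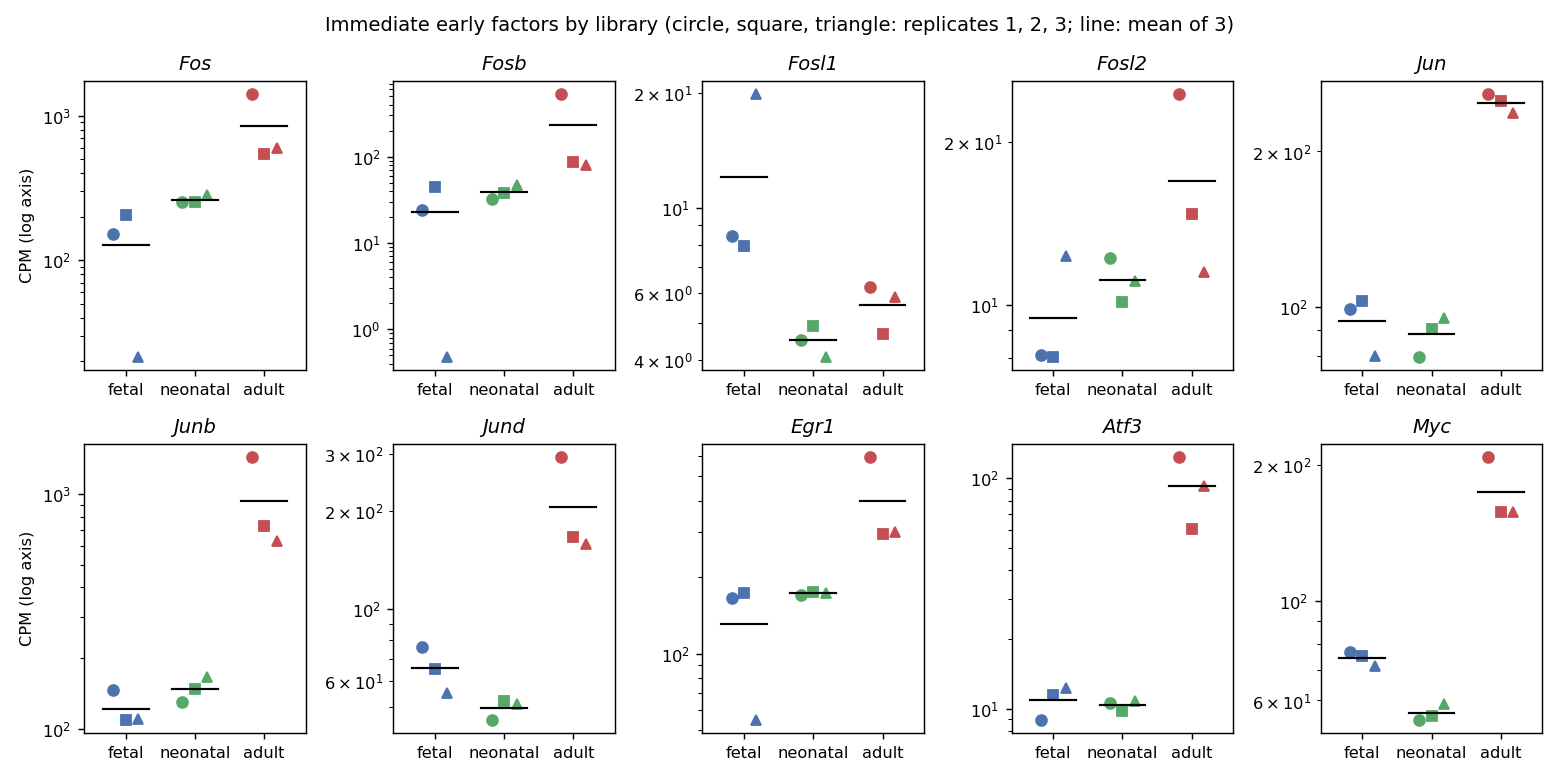
Level of each member in CPM (log axis, a separate range per panel) in the 9 libraries, with circles, squares and triangles for replicates 1, 2 and 3 and a line at the mean of each age. The circle of adult replicate 1 is the highest adult value in all 10 panels, and the triangle of fetal replicate 3 lies far below the other fetal libraries for Fos, Fosb and Egr1.

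Among the FOS family, Fos itself, the founding AP-1 subunit, was measured at 153, 206 and 21.4 CPM in fetal libraries 1 to 3, at 253, 254 and 282 CPM in the neonatal libraries and at 1412, 540.1 and 596 CPM in the adult libraries. All adult values lay above all neonatal values, and these above all fetal values. Adult exceeded fetal cells by 2.74 on the log2 scale (SE 0.709, adjusted p = 0.00724). Against neonatal cells the adult difference was 1.69 (SE 0.682) and was not called (adjusted p = 0.0557), and the neonatal difference from fetal cells, 1.05 (SE 0.674), was not called either (adjusted p = 0.247). Without fetal library 3, which is in neither of these ages, the adult excess over neonatal cells stayed at 1.69. Its SE fell to 0.418 through the shared spread, and it was called (adjusted p = 0.0132). Without that library and adult library 1, the log2 fold changes were 1.66 for adult against fetal (adjusted p = 7.54e-05), 1.11 for adult against neonatal (adjusted p = 0.000321) and 0.55 for neonatal against fetal (adjusted p = 0.0162), all 3 called.

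Fosb, an AP-1 subunit typical of strong or repeated stimulation, showed the widest spread of the members. Its level was 23.9, 44.2 and 0.478 CPM in the fetal libraries, the last from 9 counts, 32.4, 37.6 and 46.6 CPM in the neonatal and 528, 86.4 and 79.8 CPM in the adult libraries. The adult libraries were all above the others, with library 1 at 6.35 times the mean of the other two, while the fetal and neonatal libraries overlapped. The adult excess over fetal cells was 3.33 on the log2 scale (SE 1.11, adjusted p = 0.0240). It was not called without adult library 1 (1.85, adjusted p = 0.114), without fetal library 3 (2.75, adjusted p = 0.0581) or without fetal library 1 (3.34, adjusted p = 0.0653), and was called at 1.27 without both adult library 1 and fetal library 3 (adjusted p = 0.0210). Against neonatal cells the adult difference was 2.58 (SE 1.07, adjusted p = 0.0620), not called. Without adult library 1 it was 1.10 (adjusted p = 0.336), also not called. It was called at 2.57 without fetal library 3 (adjusted p = 0.0443), at 2.98 without adult library 3 (adjusted p = 0.0483) and at 1.11 without both libraries that stood apart (adjusted p = 0.0243). Fetal library 3 is in neither of these ages, and without it the SE fell to 0.893 at nearly the same difference. Neonatal and fetal cells differed by 0.75 (SE 1.05, adjusted p = 0.603), and by 0.18 without fetal library 3 (adjusted p = 0.907), neither called.

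Fosl1, which encodes FRA1, a subunit usually induced later and tied to motile and invasive states, went the other way. It was measured at 8.42, 7.93 and 19.8 CPM in the fetal, 4.51, 4.92 and 4.08 CPM in the neonatal and 6.20, 4.69 and 5.84 CPM in the adult libraries. Every fetal library was above every later one, and the neonatal and adult values overlapped. Its log2 fold change was -1.11 for adult against fetal (SE 0.340, adjusted p = 0.0152) and -1.41 for neonatal against fetal cells (SE 0.339, adjusted p = 0.0116). Adult and neonatal cells differed by 0.30 (SE 0.351, adjusted p = 0.471). Fetal library 3 carried the highest level, 2.42 times the mean of the other two, but without it the fetal excess was still called, at -0.56 for adult against fetal (adjusted p = 0.00928) and -0.85 for neonatal against fetal (adjusted p = 0.00172). Without adult library 2 the adult difference from fetal cells, -0.998, was not called (adjusted p = 0.0571).

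Fosl2, which encodes FRA2, was low at all ages: 8.10, 8.02 and 12.3 CPM in the fetal, 12.2, 10.1 and 11.1 CPM in the neonatal and 24.5, 14.7 and 11.5 CPM in the adult libraries. Fetal library 3 lay above adult library 3, so the ages overlapped. The adult excess over fetal cells, 0.84 on the log2 scale (SE 0.276), was called (adjusted p = 0.0217), but not without adult library 1 (0.47, adjusted p = 0.0833), without fetal library 1 (0.72, adjusted p = 0.0711) or without fetal library 2 (0.72, adjusted p = 0.0726). The adult difference from neonatal cells was 0.60 (SE 0.275, adjusted p = 0.0818), called only when adult library 3 was left out (0.81, adjusted p = 0.0257). Neonatal cells differed from fetal cells by 0.23 (SE 0.276, adjusted p = 0.535), called only without both libraries that stood apart (0.46, adjusted p = 0.00549).

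All 3 JUN genes were higher in adult cells than in either younger age, with no overlap of libraries, and each of these 6 differences remained called without adult library 1, without fetal library 3 and without both. Jun, the main partner of FOS, was the steadiest: 98.9, 103 and 80.2 CPM in the fetal, 79.8, 90.3 and 94.8 CPM in the neonatal and 258, 250.1 and 237 CPM in the adult libraries. The adult libraries stood within 1.09-fold of each other, far above both younger ages on the plot of levels by library. The log2 fold change was 1.40 against fetal (SE 0.103, adjusted p = 2.29e-06) and 1.49 against neonatal cells (SE 0.104, adjusted p = 2.72e-06).

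Junb, a JUN protein often described as restraining growth, had the largest difference in its family. Its level was 146, 109 and 109 CPM in the fetal, 129, 147 and 166 CPM in the neonatal and 1438, 728 and 628 CPM in the adult libraries. Adult library 1 had 2.12 times the mean of the other adult libraries, yet the lowest adult value was still several times the highest younger one. The difference was 2.94 on the log2 scale against fetal (SE 0.310, adjusted p = 3.37e-05) and 2.66 against neonatal cells (SE 0.306, adjusted p = 8.31e-05).

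Jund, the JUN protein that most cells hold in the resting state, was measured at 76.2, 65.4 and 54.97 CPM in the fetal, 45.5, 51.9 and 50.8 CPM in the neonatal and 295, 166 and 159 CPM in the adult libraries. The neonatal libraries were the lowest and did not overlap the fetal ones. Adult exceeded fetal cells by 1.66 (SE 0.234, adjusted p = 0.000215) and neonatal cells by 2.06 (SE 0.238, adjusted p = 8.36e-05). The neonatal difference from fetal cells, -0.41 (SE 0.232), was not called (adjusted p = 0.197). It was called without adult library 1 (-0.40, adjusted p = 0.0267) and without both that library and fetal library 3 (-0.51, adjusted p = 6.81e-06). Adult library 1 is in neither of these ages, and without it the SE fell to 0.116 at nearly the same difference.

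Between neonatal and fetal cells Jun differed by -0.09 (SE 0.102, adjusted p = 0.517) and Junb by 0.28 (SE 0.290, adjusted p = 0.479), neither called, and their libraries overlapped. For Jun the difference was -0.19 and called without both libraries that stood apart (adjusted p = 0.0140).

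Egr1, a factor that links growth signals and injury to matrix genes, was measured at 165, 173 and 54.9 CPM in the fetal, 170.2, 174 and 173 CPM in the neonatal and 594, 295 and 301 CPM in the adult libraries. The neonatal libraries lay within 1.02-fold of each other, fetal libraries 1 and 2 were close to them, and fetal library 3 was well below. Adult cells exceeded fetal cells by 1.596 on the log2 scale (SE 0.422, adjusted p = 0.00816) and neonatal cells by 1.202 (SE 0.418, adjusted p = 0.0319), with no overlap. Without both libraries that stood apart these were 0.82 (adjusted p = 8.35e-12) and 0.79 (adjusted p = 3.69e-12). Those libraries were chosen for the members' own values, Egr1 among them, and leaving them out narrows the spread that the test uses. The smaller p-values are therefore not stronger evidence than those from all libraries. Without adult library 1 alone the difference from neonatal cells, 0.79, was not called (adjusted p = 0.123), and the call also ended when neonatal library 1, 2 or 3 was left out (adjusted p = 0.0832, 0.0812 and 0.0814). Neonatal and fetal cells differed by 0.39 (SE 0.414, adjusted p = 0.482), and by 0.03 without fetal library 3 (adjusted p = 0.959).

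Atf3, the stress-induced member, was low and even in both younger ages, at 8.96, 11.5 and 12.3 CPM in the fetal and 10.6, 9.76 and 10.8 CPM in the neonatal libraries. In the adult libraries it was at 124, 60.1 and 92.7 CPM, far above every younger library. The log2 fold change was 3.08 against fetal (SE 0.249, adjusted p = 5.33e-06) and 3.15 against neonatal cells (SE 0.251, adjusted p = 8.14e-06), and 2.89 and 2.88 without both libraries that stood apart. Neonatal and fetal cells differed by -0.07 (SE 0.251, adjusted p = 0.843).

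Myc was measured at 77.0, 75.2 and 71.5 CPM in the fetal, 54.4, 55.3 and 58.9 CPM in the neonatal and 209, 157 and 157 CPM in the adult libraries. The 3 ages did not overlap, with the neonatal libraries lowest and the adult libraries highest. The adult level was higher by 1.23 on the log2 scale than in fetal (SE 0.109, adjusted p = 7.68e-06) and by 1.63 than in neonatal cells (SE 0.111, adjusted p = 2.35e-06). Neonatal cells were lower than fetal cells by a log2 fold change of -0.41 (SE 0.109, adjusted p = 0.0180). That call was lost without neonatal library 1 (-0.38, adjusted p = 0.0658) or neonatal library 2 (-0.39, adjusted p = 0.0616).

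Counted over the members, 10 of 10 were called between adult and fetal cells, 9 higher and 1 lower in the adult, against 70.5% of all genes tested (34.9% higher and 35.5% lower). The median log2 fold change was 1.63 over the members and -0.01 over all genes. Between adult and neonatal cells 6 of 10 were called, all 6 higher in the adult (Jun, Junb, Jund, Egr1, Atf3 and Myc), against 63.5% of all genes (31.6% higher and 31.8% lower), and the members' median was 1.66 against -0.01. Both comparisons use the same adult libraries, so their values are given side by side and not as 2 independent results. Libraries were without overlap between adult and fetal cells for 9 members (8 higher and 1 lower in the adult), against 71.8% of all genes (35.9% higher and 35.8% lower). Between adult and neonatal cells they were without overlap for 8 members, all higher in the adult, against 76.1% of all genes (37.6% higher and 38.5% lower). Calls were thus common among all genes, and the members' share called is near that background for adult against neonatal cells, whereas their direction in the adult was nearly all upward. Without fetal library 3 and adult library 1 the members called against fetal cells were 10 (9 higher and 1 lower), beside 77.9% of all genes (38.6% higher and 39.3% lower). Those called against neonatal cells were then 8, all higher, beside 75.7% of all genes (37.4% higher and 38.3% lower), and the members' medians were 1.24 and 1.29.

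Between neonatal and fetal cells 2 of 10 members were called, Fosl1 and Myc, both lower in the neonatal libraries, against 36.3% of all genes (18.3% higher and 18.0% lower). The members' median was 0.08. Libraries were without overlap for 4 members, Fos higher and Fosl1, Jund and Myc lower, against 57.4% of all genes (29.2% higher and 28.1% lower). Of all genes called here, 2074 were higher and 2040 lower. With scaling by library totals alone the split was 1358 higher and 3321 lower, as that scaling moved the median of all genes by -0.17 on the log2 scale, and the members called were 3, all lower. The same scaling moved that median by -0.11 for adult against fetal cells. There 8 members were then called higher and 1 lower, beside 3423 higher and 4460 lower of all genes. Without fetal library 3 and adult library 1, 6 members were called between neonatal and fetal cells, Fos and Fosl2 higher and Fosl1, Jun, Jund and Myc lower, against 53.0% of all genes (27.1% higher and 25.9% lower). In a test for any difference among the 3 ages, 10 of 10 members were called, against 77.6% of all genes, and 10 of 10 also without those libraries, against 86.4%.

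**Figure D2:**
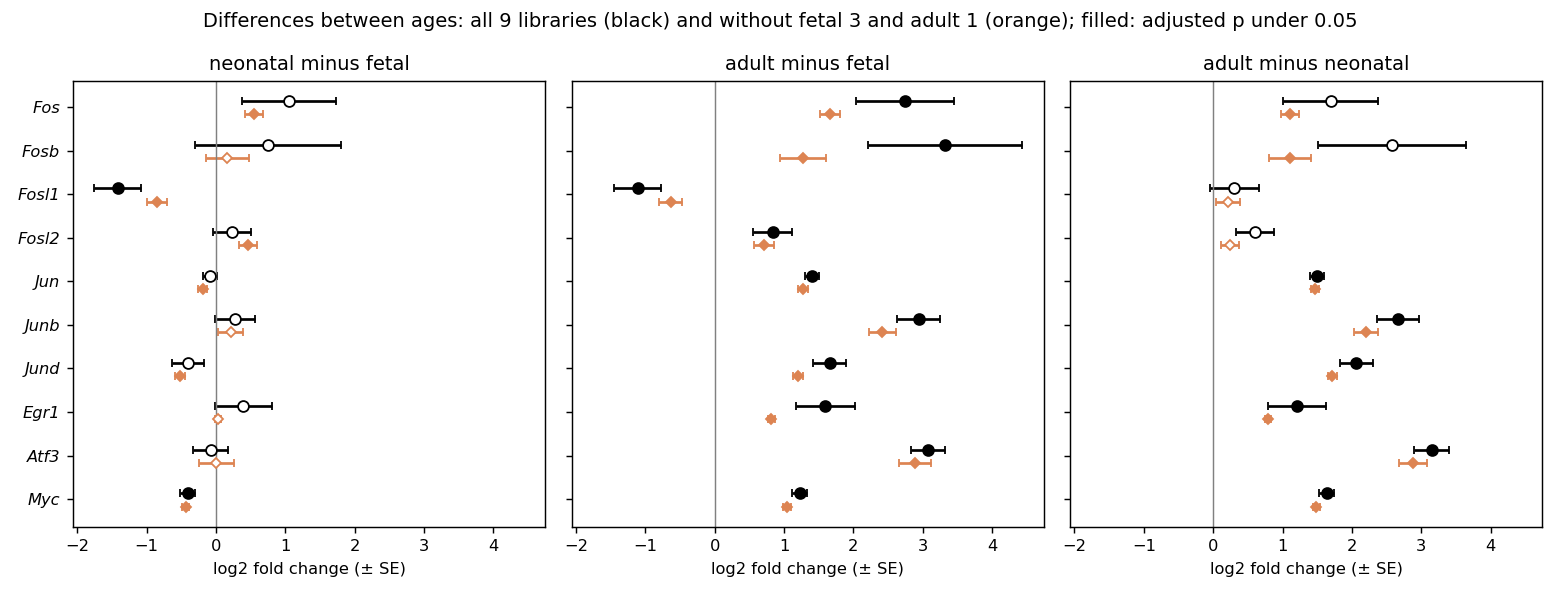
Log2 fold change of each member between ages with its SE, from all 9 libraries (black circles) and without fetal library 3 and adult library 1 (orange diamonds), filled where the adjusted p was under 0.05. Nearly all points of both comparisons with adult cells lie right of 0, except Fosl1 against fetal cells at -1.11, and the orange bars are much shorter for Fos, Fosb and Egr1.

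The libraries that stood apart did not move all members alike. Adult library 1 was 6.35 times the mean of the other adult libraries for Fosb, 2.49 times for Fos, 2.12 times for Junb and 1.99 times for Egr1, but 1.33 times for Myc and 1.06 times for Jun. Fetal library 3 had 0.0140 times the mean level of the other fetal libraries for Fosb, 0.119 times for Fos and 0.324 times for Egr1. In the same library Fosl1 was 2.42 times and Fosl2 1.53 times the mean of the others, while Jun, Junb, Jund, Atf3 and Myc were between 0.776 and 1.199 times. The largest departures in both libraries were thus those of Fosb and Fos, upward in the adult and downward in the fetal library.

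**Figure D3:**
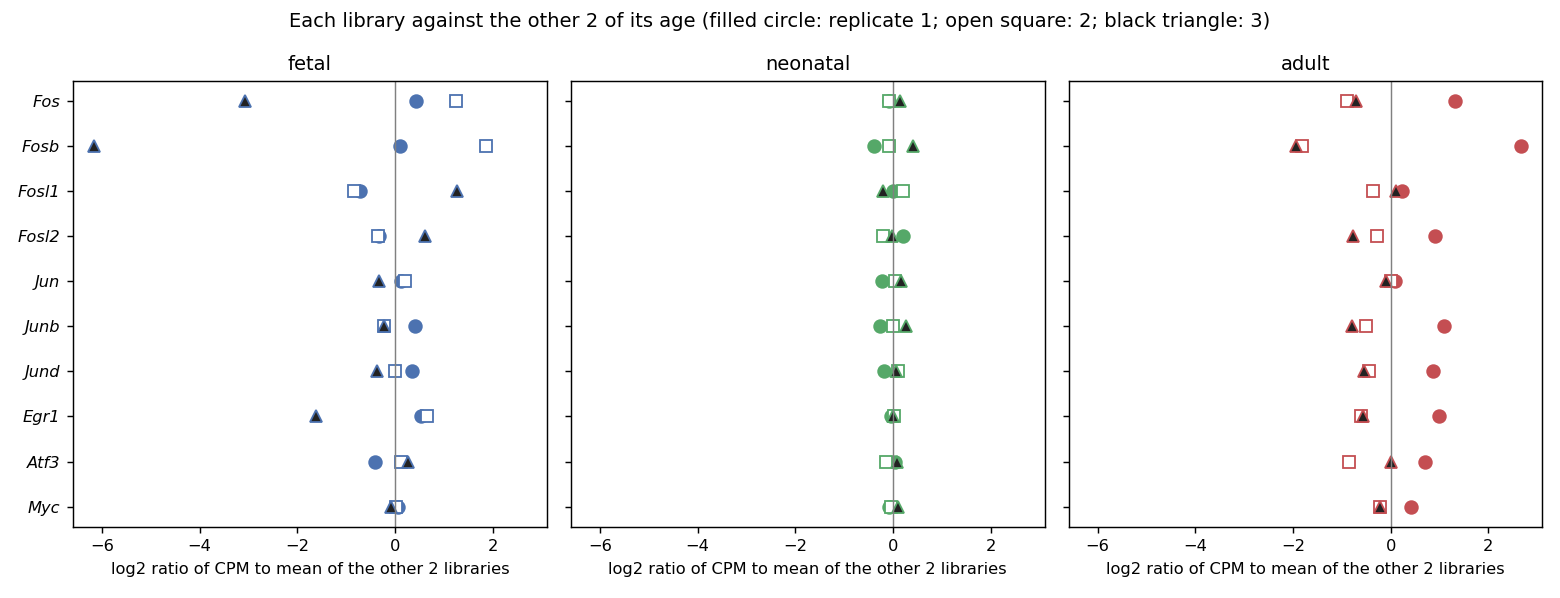
Log2 ratio of each library's CPM to the mean of the other 2 libraries of its age, by member, with replicate 1 as filled circles, 2 as open squares and 3 as black triangles. Neonatal points gather near 0, fetal replicate 3 reaches 0.0140 times the others for Fosb, and adult replicate 1 lies right of 0 for every member.

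Levels can be compared between genes only per length, here as CPM per kb of exon. In fetal cells the highest mean levels per kb were those of Egr1 (85.9 ± 43.3, SD, n = 3), Fos (79.8 ± 59.8) and Junb (68.0 ± 11.9), which do not differ beyond their spread. In neonatal cells the order was Fos (166 ± 10.2), Egr1 (113 ± 1.35) and Junb (82.5 ± 10.2), each apart from the next by more than its spread. In adult cells Fos (535 ± 307) and Junb (522 ± 247) were level within their spread, followed by Egr1 (259.9 ± 112) and Jund (123 ± 45.5), and Egr1 lay below Junb and above Jund in each adult library (389, 193 and 197 for Egr1, 806, 408 and 352 for Junb, 175, 99.0 and 94.5 for Jund). The Egr1 and Jund values did not overlap, while those of Egr1 and Junb did. The lowest mean level per kb in fetal cells was that of Atf3 (5.77 ± 0.916), which did not differ beyond the spread from Fosb (7.03 ± 6.74) or Fosl1 (7.25 ± 4.04), and at the later ages it was that of Fosl1 in neonatal (2.71 ± 0.255) and adult cells (3.35 ± 0.472).

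The make-up of each family was described by these levels per kb, without a test. Fos made up 81.9%, 82.7% and 34.5% of the FOS family in fetal libraries 1 to 3, 86.1% ± 0.120 (SD, n = 3) in neonatal and 86.9% ± 4.19 in adult cells. In fetal library 3 Fosl1 and Fosl2 took 30.5% and 34.5% of the family, and Fosb 0.377%. Without division by exon length these were 36.7%, 22.8% and 0.885%, so the order of Fosl1 and Fosl2 rests on the uncertain length of Fosl2. Elsewhere Fosl1 held 3.04% to 4.31% in the other fetal libraries and less at later ages, 1.42% ± 0.208 in neonatal and 0.640% ± 0.262 in adult cells. Within the JUN family the share of Junb was 49.4% ± 3.12 in fetal, 58.6% ± 1.505 in neonatal and 70.8% ± 4.37 in adult cells, with no overlap between ages. The share of Jund was 28.3% ± 0.982, 21.0% ± 1.16 and 17.1% ± 0.830 in the same order, and that of Jun 22.2% ± 2.47, 20.4% ± 0.353 and 12.1% ± 3.71. The adult JUN family was thus richer in Junb although all 3 genes had higher levels there.

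**Figure D4:**
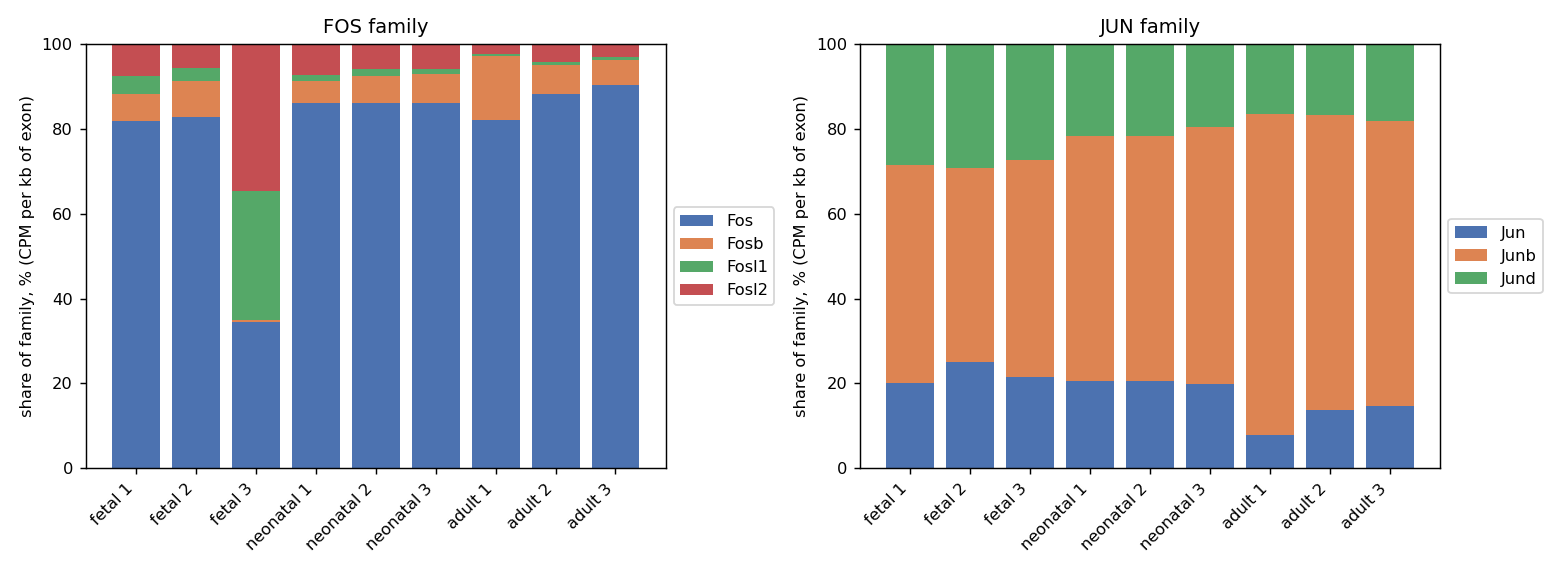
Share of each gene in the summed level (CPM per kb of exon) of the FOS family (left) and the JUN family (right), in percent, for the 9 libraries. Fetal library 3 is the bar with the smallest part of Fos, at 34.5%, and the Junb part widens from 49.4% in fetal to 70.8% in adult cells on average.

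The summed FOS level per kb was 0.738, 1.18 and 0.325 times the summed JUN level in the fetal libraries, 1.48, 1.30 and 1.34 times in the neonatal and 1.02, 0.656 and 0.795 times in the adult libraries. Neonatal cells thus had the highest ratio, above every fetal and adult library, although both families were at their highest level in the adult. Together the 10 members took 0.0506% to 0.0823% of all counts in fetal libraries, 0.0755% to 0.0854% in neonatal libraries and 0.226% to 0.472% in adult ones.

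Other immediate early genes, 35 in all with none left out by the filter, were read in the same fit. Between adult and fetal cells 30 were higher and 1 lower, with a median log2 fold change of 1.28, and between adult and neonatal cells 28 were higher and 0 lower (median 1.19). Between neonatal and fetal cells 7 were higher and 5 lower (median 0.09). The shares of all genes tested were 34.9% higher and 35.5% lower, 31.6% and 31.8%, and 18.3% and 18.0% in the same order. They are also the background for the lists below. Without fetal library 3 and adult library 1 the counts of the 35 genes were 30 higher and 3 lower, 28 higher and 4 lower, and 14 higher and 10 lower. The shares of all genes were then 38.6% and 39.3%, 37.4% and 38.3%, and 27.1% and 25.9%. Nr4a1, an orphan nuclear receptor, was at 12.9, 14.5 and 9.29 CPM in the fetal and 533, 144 and 155 CPM in the adult libraries (log2 fold change 4.50, SE 0.535, adjusted p = 7.22e-05). Egr2, a relative of Egr1, was at 9.23, 12.3 and 11.8 CPM in the fetal and 213, 185 and 173 CPM in the adult libraries (log2 fold change 4.10, SE 0.127, adjusted p = 1.32e-08). Adult library 1 was again the highest for Nr4a1, by 3.56 times the mean of the others, but only 1.19 times for Egr2, and without it the log2 fold change of Nr4a1 was 3.61 (adjusted p = 6.63e-07). The gene that was lower, Ptgs2, makes the prostaglandin enzyme COX-2 and had 41.8, 50.4 and 88.3 CPM in the fetal and 29.3, 6.64 and 5.31 CPM in the adult libraries (log2 fold change -2.13, SE 0.581, adjusted p = 0.00939). Adult library 1 was 4.90 times the mean of the others for Ptgs2, and the difference was -3.32 without it (adjusted p = 8.63e-05), -1.76 and not called without fetal library 3 (adjusted p = 0.0578) and -2.95 without both (adjusted p = 4.78e-13). Over this list adult library 1 was the highest adult library for 28 of 35 genes, against 39.8% of all genes tested. For 12 of the 35 it was at least 2-fold above each of the others, against 2.92% of all genes.

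Genes known as inducers of immediate early genes were read in the same fit, and whether they induce the members here was not tested. Of 31 signalling and transcription factor genes tested (of 36 listed), 10 were higher and 12 lower in adult than in fetal cells (median -0.05). All genes tested had 34.9% higher and 35.5% lower. Against neonatal cells 8 of the 31 were higher and 12 lower (median -0.14), beside 31.6% and 31.8% of all genes. Pdgfra, a receptor for platelet-derived growth factor, was at 432 ± 216 CPM in adult against 122 ± 25.5 CPM in fetal cells (log2 fold change 1.83, SE 0.320, adjusted p = 0.000810), and Rps6ka1, a kinase activated by growth factor signals, was also higher (1.31, SE 0.296, adjusted p = 0.00339). Mef2a, a muscle and growth-response factor, was lower (-1.28, SE 0.0639, adjusted p = 1.99e-07).

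Of 23 phosphatases and repressors known to limit such responses (of 24 listed), 8 were higher and 8 lower in adult than in fetal cells (median -0.04). All genes tested had 34.9% higher and 35.5% lower. Against neonatal cells 9 of the 23 were higher and 9 lower (median -0.05), beside 31.6% and 31.8% of all genes. Zfp36, whose protein speeds the decay of AU-rich messages, was at 121, 133 and 71.6 CPM in the fetal and 1034, 596 and 586 CPM in the adult libraries (log2 fold change 2.76, SE 0.284, adjusted p = 2.94e-05). Its relative Zfp36l1 was also higher (2.05, SE 0.272, adjusted p = 0.000148). Dusp8 and Dusp16, phosphatases that act on MAP kinases, were lower in adult cells (-2.41, SE 0.173, adjusted p = 1.98e-06, and -1.33, SE 0.204, adjusted p = 0.000275).

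Among 24 other leucine zipper genes (of 28 listed), 14 were higher and 5 lower in adult than in fetal cells (median 0.88), and 12 higher and 5 lower than in neonatal cells (median 0.34). Cebpb and Cebpd, factors of inflammation and differentiation, were at 148 ± 63.9 and 156 ± 76.7 CPM in adult against 12.8 ± 2.10 and 14.2 ± 3.26 CPM in fetal cells (log2 fold changes 3.53, SE 0.296, adjusted p = 8.03e-06, and 3.47, SE 0.339, adjusted p = 2.12e-05). Atf7 and Atf2, whose proteins pair with JUN, were lower (-0.82, SE 0.0845, adjusted p = 2.05e-05, and -0.74, SE 0.138, adjusted p = 0.000971). Of 8 genes of the MYC network (of 12 listed), 4 were higher in adult than in fetal cells and none lower (median 0.38), among them Mnt (0.86, SE 0.119, adjusted p = 0.000142) and Mxi1 (0.64, SE 0.107, adjusted p = 0.000485), which encode repressors that compete with MYC for its sites.

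Genes long described as AP-1 targets, 24 tested of 28 listed, were mostly higher in the adult: 16 higher and 4 lower than in fetal cells (median 0.90) and 17 higher and 3 lower than in neonatal cells (median 1.26). The proteases Mmp12 and Mmp9 led the list, at 1679 ± 208 and 77.0 ± 60.7 CPM in adult against 3.98 ± 6.67 and 0.195 ± 0.337 CPM in fetal cells. Fetal library 3 held nearly all of the fetal level, with 11.7 CPM of Mmp12 against 0.162 and 0.0881 CPM in the others and 0.584 CPM of Mmp9 against 0 in both. Both are also made by macrophages, whose 12 markers were all higher in the adult libraries, and the part of those cells in these values was not tested. Lox, the enzyme that crosslinks collagen, was lower (87.5 ± 14.8 against 361 ± 15.3 CPM, log2 fold change -2.04, SE 0.115, adjusted p = 4.14e-07), as was the phosphatase Dusp4 (-1.31, SE 0.362, adjusted p = 0.00942, and -1.97 without adult library 1, adjusted p = 8.01e-05).

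Textbook MYC targets, largely ribosome, nucleotide and cell cycle genes, were mostly lower at both later ages than in fetal cells. Of 27 tested (of 28 listed), 1 was higher and 19 lower in adult than in fetal cells (median -0.60), where Myc was higher, and 0 were higher and 21 lower in neonatal than in fetal cells (median -0.51), where Myc was lower. Against neonatal cells the adult had 6 higher and 9 lower (median 0.00). Ccnd2, a cyclin of the G1 phase, was at 37.0 ± 6.35 CPM in adult against 183 ± 35.4 CPM in fetal cells (log2 fold change -2.30, SE 0.165, adjusted p = 2.08e-06), and the transferrin receptor gene Tfrc at 58.2 ± 7.80 against 202 ± 14.6 CPM (-1.80, SE 0.105, adjusted p = 5.08e-07). Ldha, which encodes a lactate dehydrogenase subunit, was the gene that was higher (153 ± 7.73 against 110.0 ± 4.398 CPM, log2 fold change 0.47, SE 0.0601, adjusted p = 8.11e-05).

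**Figure D5:**
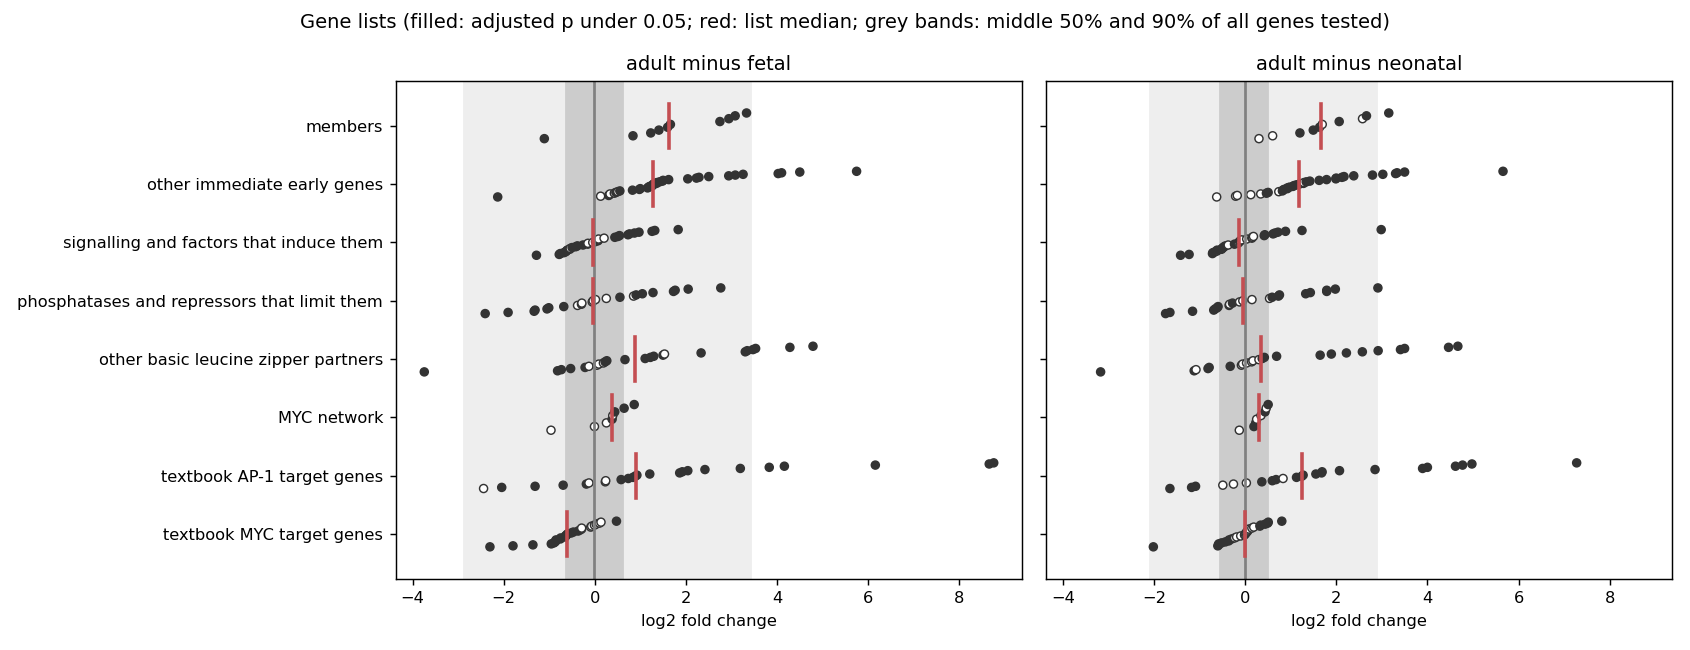
Log2 fold change of every tested gene of the members and of 7 other lists, adult minus fetal (left) and adult minus neonatal (right), filled where the adjusted p was under 0.05, with red lines at list medians and grey bands for the middle 50% and 90% of all genes tested. The medians of the members (1.63 and 1.66), the other immediate early genes (1.28 and 1.19) and the AP-1 targets (0.90 and 1.26) lie right of the inner band. The median of the other leucine zipper genes does so in the left panel only (0.88). The medians of the inducing and limiting genes lie near 0, as do those of all genes tested.

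The genes whose log2 CPM was most alike to each member's over the 9 libraries were taken as a description, since the libraries fall into 3 ages and 2 of them stood apart. For Egr1 they were Dusp1 (Pearson r = 0.995), which encodes an inducible MAP kinase phosphatase, Fos (0.983) and Hes1 (0.983). Dusp1 was at 239, 272 and 95.6 CPM in the fetal, 266, 262 and 272 CPM in the neonatal and 994, 480.4 and 534 CPM in the adult libraries, so it shared the low fetal library 3 and the high adult library 1. For Fosb they were Gstm2 (0.988), Fos (0.983) and the gene listed as Mir22 (0.980), and for Fos Gstm2 (0.991), Itm2c (0.989) and the gene listed as Mir22 (0.987). Jun was most like Hlx (0.996), Smox (0.995) and Ptk2b (0.994), Junb most like Rhpn1 (0.995), RT1-CE4 (0.994) and Lgals9 (0.994), and Jund most like Dapk3 (0.997), Imp3 (0.991) and Maff (0.991). Atf3 was most like LOC689574 (0.996), Riok3 (0.995) and Cd69 (0.994), and Myc most like Vcam1 (0.991), Fam162a (0.991) and Sdf2l1 (0.991). Fosl1 was most like Cacybp (0.989), Rsl24d1 (0.984) and Gmeb1 (0.980), and Fosl2 most like Ptges (0.957), Zfp18 (0.955) and Casp8 (0.952). Fos was thus among the 3 closest genes of Fosb and of Egr1, and no JUN gene was among the 3 closest of any FOS gene.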

How the data were processed

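RNA from cultured rat cardiac fibroblasts (3 ages, 3 libraries each) was sequenced. The deposited table of whole-number counts per gene was made with featureCounts 1.6.3 from STAR alignments and rn6 gene models, without strand or multi-mapping options, per the file headers. Trimmomatic 0.39, STAR 2.5.2b and DESeq2 are named in the submitters' processing notes. The authors' second table holds a normalized signal per gene, the counts divided by a size factor per library, and only those factors were used here. Of 17337 genes, 14821 carry a current symbol, 2125 an older one, and 391 matched no name in RefSeq's table.

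Ages were taken from the labels. Differences were tested with edgeR 4.0.16 (R 4.3.3; TMM scaling, filterByExpr, robust quasi-likelihood fit, age as the only term, all 9 libraries) with Benjamini-Hochberg adjustment over 11337 genes; the script was first tested on simulated data. Deposited counts were turned into CPM on TMM-scaled totals (prior count 2 for log2 CPM). DESeq2 1.42.0, limma 3.58.1 (voom), other scalings, no filter, 2 ages only, a replicate block, a minimum fold, and leaving out libraries were alternatives. No library was a duplicate of another. Libraries of different ages that share a number were not treated as pairs. Their deviations from the mean of their age were hardly correlated, which cannot exclude a shared preparation. Members and gene lists were chosen with earlier results of these data known. The members were named by the list of 10; in other lists the text names up to 2 genes per direction with the largest called change whose ages do not overlap and whose higher mean reaches 10 CPM, and for each member the 3 genes with the highest Pearson correlation. One gene that this rule names is not reported here. The leaving out of fetal library 3 and adult library 1 together was added after seeing the data. P-values are limited by 3 libraries per age.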

Additional observations from a re-analysis of the deposited data

How the results depend on the processing

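With 19 alternatives, the members' direction between adult and fetal cells and between adult and neonatal cells never reversed: of 190 values each, 175 and 175 kept their side of the threshold, 15 and 6 lost the call and 0 and 9 gained it. Between neonatal and fetal cells 177 of 190 kept it, 4 lost and 7 gained a call, and Atf3, at -0.07, ranged from -0.197 to 0.012 when 1 library was left out (0.012 without fetal library 3, adjusted p = 0.985) and was 0.0068 without fetal library 3 and adult library 1 (adjusted p = 0.987). A test against a log2 fold change of at least 1 called 360 genes and 0 members between neonatal and fetal cells, 2648 genes and 6 members between adult and fetal cells, and 1837 genes between adult and neonatal cells; the cause is its stricter null. Leaving out 1 library at a time gave 2476 to 4679 genes and 1 to 3 members between neonatal and fetal cells. Between adult and fetal cells it gave 7508 to 8616 genes and 8 to 10 members. Between adult and neonatal cells it gave 6210 to 8322 genes and 5 to 8 members. For any difference among ages 6 to 10 members were called (6 without adult library 1). The upper ends of the gene counts exceed the 4114, 7987 and 7197 genes called with all 9 libraries. The cause of these shifts was not tested. Leaving out fetal library 3 and adult library 1 together called 6 members between neonatal and fetal cells. Libraries of different ages with the same number did not deviate together (correlations -0.06 to 0.05). With the replicate block 3713, 7801 and 6985 genes and 2, 10 and 6 members were called in the 3 comparisons. For any difference 8 members were called with it. The share of all genes called for any difference is not given here with that block or with 1 library left out. The members' counts of 8 and of 6 to 10 therefore stand without a background. Fos between adult and neonatal cells was called by DESeq2 (adjusted p = 0.0453), by library totals (0.0411) and with 2 ages only (0.0199). Fosl1 between adult and fetal cells was not called by limma-voom (adjusted p = 0.0550). Shares within families without division by exon length differ, for Junb 43.2%, 51.6% and 65.7% in fetal, neonatal and adult cells, in the same order of ages. For Fos they were 65.4%, 82.9% and 80.4%, with the neonatal mean above the adult one. The lowest counts behind a member's level were 9 for Fosb in fetal library 3 and 63 to 373 for Fosl1.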
